A study of Mus musculus with 8 samples.

Results

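The Zfp genes are the mouse zinc finger genes whose symbol is Zfp followed by a number, and they were followed here in RNA bound to ribosomes of Müller glia, with and without Nrf2. Taking every row of the deposited table with such a symbol gave 272 of 12339 genes. GENCODE release M21 names 374 Zfp genes in the mouse, so 72.7% of them reached the table. The rule uses the symbol alone and no measured value.

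Most Zfp genes encode proteins with C2H2 zinc fingers, small folds in which a pair of cysteines and a pair of histidines hold a zinc ion and which read DNA a few bases at a time. Many of them also carry a KRAB domain, which recruits the corepressor TRIM28 and, through it, the histone methyltransferase SETDB1, and these proteins are best known for silencing retroelements and for protecting genomic imprints. Others carry a SCAN domain, through which zinc finger proteins pair with each other, and a smaller number act in RNA binding, ribosome function, the spindle or protein turnover.

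The libraries were made from mouse retina at postnatal day 14 of oxygen-induced retinopathy (OIR), in which pups are kept in high oxygen and then returned to room air, so that the retina is left short of vessels. The 4 cKO libraries carried a conditional knockout of Nrf2 in Müller cells, glia that span the retina, and the 4 WT libraries were wild type for Nrf2. Both groups went through OIR and both are RiboTag samples, in which a tagged ribosomal protein is used to pull down ribosomes of the cells that express it. Replicates are numbered 1, 3, 4 and 5 in each group. The labels give no Cre driver, deleted exon, sex or litter, and do not say whether a library is 1 animal, so p-values measure the spread between these libraries, which may be technical.

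The unit is FPKM, fragments scaled to transcript length and to the fragments of the library, whose number the sources do not give. Nfe2l2, which encodes Nrf2, had 12.7, 16.5, 14.8 and 10.4 FPKM in cKO libraries 1, 3, 4 and 5, against 17.5, 18.8, 23.1 and 17.5 FPKM in the WT libraries of the same numbers. The groups did not overlap (log2 difference, cKO minus WT, −0.50; exact two-sided permutation test over all 8 libraries p = 0.0286, the smallest that 70 assignments allow). With cKO and WT exchanged only within libraries of the same number, the exact p was 0.125, the smallest that 16 assignments allow. Rpl22, the ribosomal protein gene tagged in RiboTag mice, averaged 162.9 ± 15.9 FPKM in cKO and 151.7 ± 15.1 FPKM in WT (SD, n = 4 each). All 12 listed Müller glia markers were measured, at mean levels of 43.7 to 3513 FPKM, but all 9 rod markers were there as well, at 101 to 1273 FPKM. With the replicate number as a block, as described below, 7.59% of all genes were lower and 2.99% higher in cKO at an adjusted p under 0.05. In that fit Aqp4 and Abca8a of the Müller markers were lower in cKO (−0.35 and −0.36 on the log2 scale). Of the 12 Müller markers 10 had a negative difference, and no rod marker passed. In bulk RNA, fewer cells of a type and less RNA per cell cannot be told apart. Xist, the RNA made from the inactive X chromosome of female cells, was at 0.086 and 0.0051 FPKM in cKO 4 and cKO 5 and at 25.01 to 72.1 FPKM in the other 6 libraries, so the sexes were not balanced between the groups. All 7 measured transcripts of a list of nuclear RNAs, Xist among them, were lower in the cKO library of every pair, 5 of them past the threshold and Xist and Neat1 not, and their summed level was 235 to 1347 FPKM in cKO libraries and 487.5 to 2120 FPKM in WT libraries. The 9 bipolar cell markers summed to 2501 to 3107 FPKM in cKO libraries and 1953 to 2587 FPKM in WT libraries, with 4 of them past the threshold and higher. The 6 measured ganglion cell markers summed to 46.4 to 66.1 FPKM in cKO libraries and 64.2 to 85.9 FPKM in WT libraries, with 3 past the threshold and lower. Of the 7 cone markers 4 were lower and 1 higher, and their sums were 101 to 117 FPKM in cKO libraries and 90.8 to 121 FPKM in WT libraries. Of the 5 measured amacrine and horizontal cell markers 2 were lower, and their sums were 158 to 199 FPKM in cKO libraries and 205 to 233 FPKM in WT libraries. Of the 5 measured astrocyte markers 2 were higher, Gfap (1.35) and S100b (0.44), and their sums were 327 to 497 FPKM in cKO libraries and 184 to 402.5 FPKM in WT libraries. Of the 3 measured vessel and mural cell markers Rgs5 was higher (0.76), while Kdr (−0.21) and Pdgfrb (−0.25) were negative and did not pass. Their sums were 181 to 223 FPKM in cKO libraries and 170 to 244 FPKM in WT libraries. The part of these RNAs in the results below was not tested, apart from the fit with an unspliced RNA covariate given at the end.

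Most Zfp genes were close to their WT level in the cKO libraries. In limma on log2(FPKM + 0.5), with p-values adjusted by the Benjamini-Hochberg method over all 12339 genes and a threshold of 0.05, no Zfp gene passed when the replicate numbers were ignored, as was so for 0% of all genes. At an unadjusted p under 0.05 the same fit held 17 members lower and 6 higher in cKO, against a background of 6.67% of all genes lower and 3.95% higher. Over all genes, the libraries with equal numbers deviated together, so the numbers were taken to pair the samples. With the number as a block 11 of 272 members were lower and 5 higher in cKO. Those counts stand beside 7.59% of all genes lower, 2.99% higher and 10.6% in either direction, and 5.88% of the members passed in either direction. The other 256 members did not pass with the block. Without pair 1, 3, 4 or 5, the count with the block fell to between 4 and 6 lower and between 0 and 2 higher. In these fits 347 to 685 of all genes were lower and 55 to 136 higher. The 4 members Zfp445, Zfp692, Zfp932 and Zfp318, all lower, passed in each of these fits. Of all 12339 genes, 297 lower and 27 higher did so. In the 6 libraries with Xist RNA, only pairs 1 and 3 are complete and 1 residual degree of freedom is left. There the block fit held 5 members lower and 0 higher, beside 580 lower and 259 higher of all 12339 genes.

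The differences were small for nearly all members. Of the 272 genes, 131 differed by less than 0.1 on the log2 scale, 8 were more than 0.5 lower and 1 was more than 0.5 higher in cKO. A negative difference was found for 168 members, or 61.8%, against 49.3% of all genes, and the median was −0.04 against 0.00 over all genes. This lean of the family was below 0 under each other scaling run except quantile scaling, where the median turned to 0.01 beside 0.03 over all genes. Every cKO library lay below every WT library for 9 members and above for 3, and the same was true of 2.28% and 2.06% of all genes. Those below were Zfp445, Zfp932, Zfp414, Zfp157, Zfp618, Zfp626, Zfp821, Zfp937 and Zfp963, and those above were Zfp35, Zfp395 and Zfp574, of which only the first 3 named also passed with the block. The difference was negative in all 4 pairs for 48 members and positive in all 4 for 27, against 19.5% and 16.7% of all genes.

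**Figure D1:**
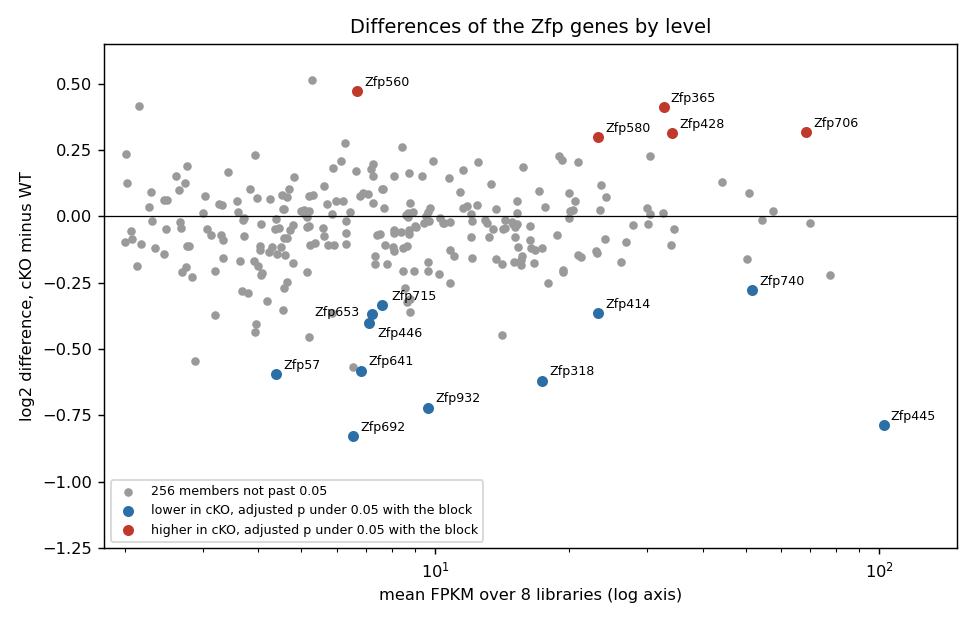
Log2 difference, cKO minus WT (vertical axis), of each of the 272 Zfp genes by its mean FPKM over 8 libraries (horizontal log axis). The 11 genes in blue were lower and the 5 in red higher in cKO past an adjusted p of 0.05 with the replicate block, and Zfp445 is both the most abundant member and among those farthest below 0.

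The lean to lower values was not even across the pairs. In pair 1, 178 members were lower in the cKO library (65.4%, median −0.11), while 48.3% of all genes were. Pair 3 had 169 lower members (62.1%, median −0.08), beside 53.3% of all genes. Pair 4 had 150 (55.1%, median −0.02), beside 52.3% of all genes. In pair 5, 121 were lower (44.5%, median 0.03), beside 49.6% of all genes. The median member thus lay below 0 in 3 pairs and above 0 in the fourth. Pairs 4 and 5 are also those whose cKO library lacked Xist RNA while its WT partner had it. In the libraries with Xist RNA alone, the member median was −0.09 with the block and −0.02 without it. Over all genes these medians were −0.0035 and −0.004. Whether sex had a part in the unevenness was not tested. The median level of the members in a library, on the log2 scale, was 2.98 ± 0.11 in cKO and 3.04 ± 0.14 in WT (SD, n = 4 each), a gap smaller than the spread within each group.

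**Figure D2:**
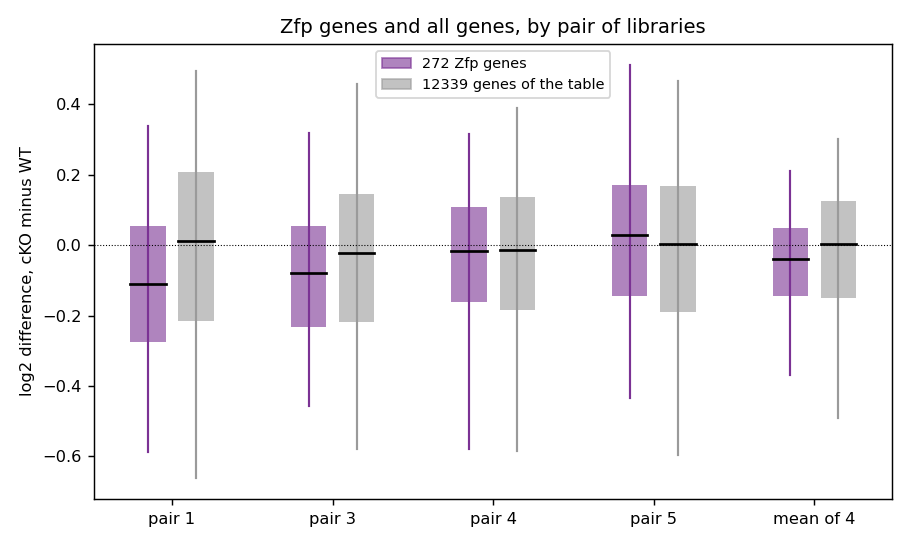
Log2 difference, cKO minus WT, in each pair of libraries with the same number and in the mean of the 4 pairs, for the 272 Zfp genes (purple) and all 12339 genes (grey). Boxes span the quartiles, lines run from percentile 5 to percentile 95 and the black bar is the median, which for the Zfp genes is −0.11 in pair 1 and 0.03 in pair 5.

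Zfp445 gave the clearest difference of the family. It encodes a KRAB and SCAN zinc finger protein that keeps DNA methylation at imprinted loci, and it lies on the minus strand at chr9:122844529-122866006 (GRCm38), with 12 matches to the C2H2 motif in its protein. It had 69.9, 103.6, 60.4 and 68.2 FPKM in cKO libraries 1, 3, 4 and 5, against 128.6, 157.2, 110.9 and 119.4 FPKM in WT. Every cKO library lay below every WT library, and the 4 pairs differed by between −0.60 and −0.87 on the log2 scale. Zfp445 was the most abundant Zfp gene, and it fell by 0.79 on the log2 scale (SE 0.068; 42.0% lower; adjusted p = 0.00191 with the block and 0.357 without it). Its p with the block ranked 18 among all 12339 genes. Gm47140, annotated as sense intronic on the same strand over the same locus, had 1.499 to 2.53 FPKM in cKO and 3.01 to 4.26 FPKM in WT (−0.71, adjusted p = 0.0363 with the block). It is among the genes averaged as unspliced RNA at the end, and how reads were divided between the 2 genes is not known.

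Of the 3 other genes that passed without each pair in turn, Zfp692 showed the largest difference of the family. Its human counterpart ZNF692 is known as a repressor of gluconeogenic genes. Zfp692 had 5.69, 6.15, 3.81 and 2.85 FPKM in cKO libraries 1, 3, 4 and 5, against 9.68, 10.8, 7.29 and 6.03 FPKM in WT. The groups overlapped by the narrow margin between cKO 3 and WT 5, yet each cKO library was below its WT partner, and the gene fell by 0.83 on the log2 scale (SE 0.096, adjusted p = 0.00344 with the block). Zfp932, a KRAB zinc finger gene whose protein silences endogenous retroviruses in mouse cells, had 8.19, 9.41, 5.97 and 5.15 FPKM in cKO against 13, 15.9, 9.63 and 9.85 FPKM in WT. No cKO library reached the lowest WT library, and Zfp932 fell by 0.72 (SE 0.085, adjusted p = 0.00357). KRAB genes related to Zfp932 share much of their sequence, so reads may have been split between copies. Zfp318, needed for IgD expression in B cells, had 13.3, 17.6, 9.68 and 14.1 FPKM in cKO against 23.9, 25.2, 17.0 and 18.3 FPKM in WT. Only cKO 3 overlapped the WT range, and Zfp318 fell by 0.62 (SE 0.095, adjusted p = 0.00840).

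**Figure D3:**
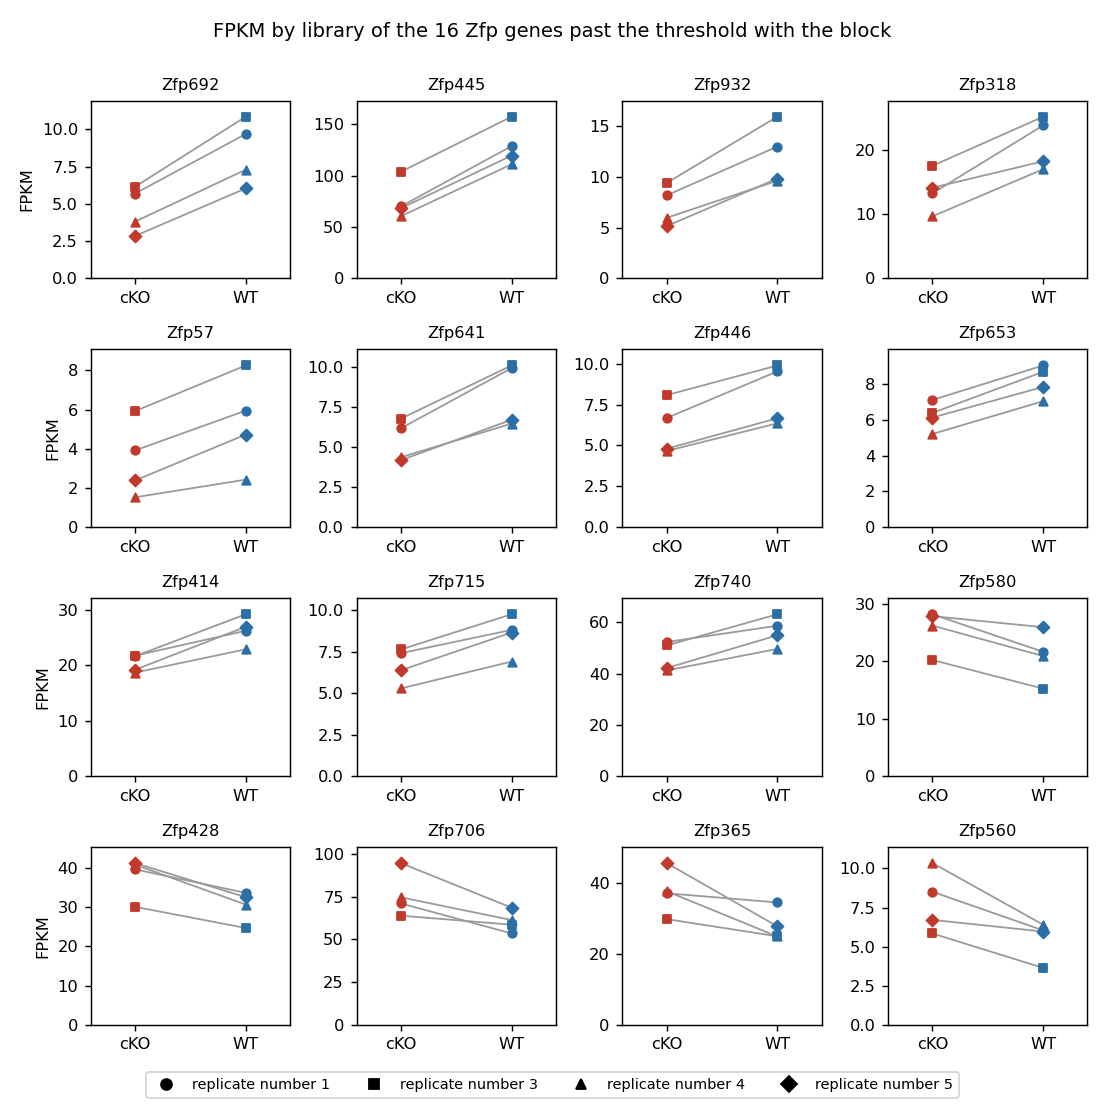
FPKM by library of the 16 Zfp genes that passed an adjusted p of 0.05 with the replicate block, cKO on the left and WT on the right of each panel, with a grey line joining libraries of the same number. All lines of the first 11 panels run higher at the WT end, and all lines of the last 5 panels, from Zfp580 to Zfp560, run higher at the cKO end.

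The promoters of these 4 genes are shown because they are the members whose difference held without each pair, and Nrf2 is a DNA-binding activator that, with a small Maf protein, reads the antioxidant response element. The sequences are the 250 bases before the transcription start from RefSeq on GRCm38.p6: chr9:122866007-122866256 on the minus strand for Zfp445, and chr11:58306819-58307068, chr5:109996277-109996526 and chr17:46383516-46383765 on the plus strand for Zfp692, Zfp932 and Zfp318. Capitals mark the only match in them to either motif searched.

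Zfp445: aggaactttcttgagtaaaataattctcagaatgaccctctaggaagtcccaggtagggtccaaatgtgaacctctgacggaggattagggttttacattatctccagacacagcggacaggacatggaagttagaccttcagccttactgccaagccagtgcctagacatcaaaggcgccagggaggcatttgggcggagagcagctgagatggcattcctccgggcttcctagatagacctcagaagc

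Zfp692: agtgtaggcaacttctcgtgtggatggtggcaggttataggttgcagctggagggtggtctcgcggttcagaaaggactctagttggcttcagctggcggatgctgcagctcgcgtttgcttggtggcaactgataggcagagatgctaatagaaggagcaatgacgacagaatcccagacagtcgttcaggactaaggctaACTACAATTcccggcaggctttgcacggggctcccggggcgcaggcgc

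Zfp932: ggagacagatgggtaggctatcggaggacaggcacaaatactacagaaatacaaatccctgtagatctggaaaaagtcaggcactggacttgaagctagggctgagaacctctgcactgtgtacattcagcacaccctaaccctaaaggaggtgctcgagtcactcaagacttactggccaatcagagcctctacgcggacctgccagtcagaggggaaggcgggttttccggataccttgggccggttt

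Zfp318: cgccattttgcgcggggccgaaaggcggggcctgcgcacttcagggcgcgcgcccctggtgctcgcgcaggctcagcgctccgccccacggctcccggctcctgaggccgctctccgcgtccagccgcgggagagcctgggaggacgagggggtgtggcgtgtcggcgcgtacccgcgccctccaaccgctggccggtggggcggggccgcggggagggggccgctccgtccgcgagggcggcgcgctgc

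The motifs were searched on both strands of windows from 250 bases before to 50 after each RefSeq start, which existed for 224 of the 272 members. The windows of all genes cover 27025 RefSeq genes and are not limited to the expression table, while every member has a mean above 2 FPKM. The antioxidant response element was written as TGACNNNGC, and it occurred in 16.7% of 275 windows of members and in 12.4% of 32851 windows of all genes. None of the 14 windows of 10 genes lower in cKO, of which Zfp57, Zfp740 and Zfp932 have more than 1 window each, and none of the 4 windows of 4 genes higher in cKO held it. The second motif, ACTACAANT, is the start of the element read by ZNF143, the human form of Zfp143, and it occurred in 5.82% of member windows and 1.49% of all windows. The Zfp692 promoter holds it as ACTACAATT. Zfp windows were also rich in CpG, with a median of 16 CpG dinucleotides against 7 over those windows of all RefSeq genes. These are matches of letters, and nothing was measured here on binding.

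Of the other members named for imprinting or retroelement silencing, Zfp57 passed with the block and Zfp809, Zfp568 and Zfp638 did not. Zfp57, the best known keeper of imprints, had 3.92, 5.93, 1.53 and 2.39 FPKM in cKO libraries 1, 3, 4 and 5, against 5.95, 8.26, 2.43 and 4.73 FPKM in WT. The groups overlapped widely and the pairs sat at different levels, but within every pair the cKO library was lower (−0.59 on the log2 scale, SE 0.12, adjusted p = 0.0242 with the block and 0.569 without it). Without the pair of replicate 1, 3, 4 or 5 the adjusted p with the block was 0.0897, 0.0670, 0.0625 or 0.0618, at differences of −0.51 to −0.65. Zfp809, which silences murine leukemia virus-type retroviruses, averaged 5.48 FPKM in cKO and 6.02 FPKM in WT and did not pass (−0.11, adjusted p = 0.632). Zfp568, which represses a placental Igf2 transcript, was near the floor of the table at 1.55 to 2.16 FPKM in cKO and 1.53 to 2.96 FPKM in WT (−0.06, adjusted p = 0.867). Zfp638, which acts with the HUSH complex on unintegrated retroviral DNA, had 41.3 to 51.9 FPKM in cKO and 46.3 to 64.2 FPKM in WT (−0.16, adjusted p = 0.180).

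The 6 remaining genes that were lower in cKO had differences between −0.28 and −0.58, and each was lower in all 4 pairs. Zfp641, a KRAB gene, was at 4.17 to 6.76 FPKM in cKO and 6.45 to 10.1 FPKM in WT (−0.58, adjusted p = 0.00850 with the block). Zfp414 was at 18.7 to 21.7 FPKM in cKO and 22.8 to 29.2 FPKM in WT without overlap (−0.36, adjusted p = 0.0187). The SCAN gene Zfp446 (−0.40, adjusted p = 0.0323), Zfp653 (−0.37, adjusted p = 0.0359), the KRAB gene Zfp715 (−0.34, adjusted p = 0.0475) and Zfp740 (−0.28, adjusted p = 0.0318) overlapped between the groups. Zfp740 lies opposite Csad, whose own difference was −0.15. Zfp641 missed the threshold without pair 1 alone, and the other 5 missed it whichever pair was left out.

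The 5 genes that were higher in cKO were mostly abundant and only 1 of them carries KRAB. Zfp706, a short protein with 1 finger that is known in mouse embryonic stem cells for its part in leaving self-renewal, had 71.1, 63.9, 74.7 and 94.7 FPKM in cKO libraries 1, 3, 4 and 5, against 53.5, 58.6, 61.4 and 68.6 FPKM in WT. Each cKO library was above its partner and the groups overlapped (0.32 on the log2 scale, SE 0.072, adjusted p = 0.0324 with the block). Zfp365, known in neurons and oligodendrocytes as a partner of DISC1, had 37.0, 29.7, 37.6 and 45.5 FPKM in cKO against 34.4, 24.9, 24.8 and 27.7 FPKM in WT (0.41, SE 0.11, adjusted p = 0.0459). The pairs were uneven for Zfp365, from 0.10 in pair 1 to 0.71 in pair 5.

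Zfp428 was at 30.1 to 41.2 FPKM in cKO and 24.7 to 33.6 FPKM in WT (0.31, adjusted p = 0.0217 with the block). Zfp560, the KRAB gene of the 5, was at 5.84 to 10.3 FPKM in cKO and 3.64 to 6.40 FPKM in WT (0.47, adjusted p = 0.0376). Zfp580 was at 20.2 to 28.2 FPKM in cKO and 15.2 to 25.96 FPKM in WT (0.30, adjusted p = 0.0437), and it overlaps Ccdc106 on the same strand, whose own difference was 0.18. None of the 5 passed in every fit without a pair. Zfp703, which has no C2H2 motif by the pattern used, had the largest positive difference of the family, with 4.82 to 8.38 FPKM in cKO and 3.27 to 5.56 FPKM in WT, but it did not pass (0.51, adjusted p = 0.0891).

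The members spanned mean levels of 2.002 to 102 FPKM with a median of 7.61, while the median over all genes was 15.4 FPKM. After Zfp445 the most abundant were Zfp536, Zfp207, Zfp706, Zfp444, Zfp219, Zfp740, Zfp664, Zfp638 and Zfp91. Zfp536, a repressor of neuronal differentiation, had 71.9, 81.03, 64.2 and 68.9 FPKM in cKO libraries against 82.6, 97.0, 70.6 and 84.6 FPKM in WT. It was lower in each pair and just missed the threshold (−0.22, adjusted p = 0.0521 with the block). Zfp207, which loads the kinetochore protein Bub3, averaged 68.9 ± 6.80 FPKM in cKO and 70.6 ± 11.8 FPKM in WT (SD, n = 4 each), and its 95% interval with the block ran from −0.28 to 0.23. Zfp444 averaged 57.9 ± 3.95 FPKM in cKO and 57.3 ± 7.03 FPKM in WT, Zfp219 averaged 54.1 ± 1.41 FPKM in cKO and 54.7 ± 2.80 FPKM in WT, and Zfp664 averaged 52.3 ± 0.98 FPKM in cKO and 49.2 ± 1.82 FPKM in WT. Zfp91, a ubiquitin ligase, averaged 46.3 ± 4.16 FPKM in cKO and 42.4 ± 3.97 FPKM in WT (0.13, adjusted p = 0.222). The 3 least abundant members, Zfp108, Zfp458 and Zfp217, lay between 1.38 and 3.01 FPKM in all 8 libraries and did not pass. The spread within a group exceeded or nearly equalled the gap for Zfp207, Zfp444, Zfp219 and Zfp91, though Zfp91 was higher in cKO in each of the 4 pairs (by 0.04 to 0.22).

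Of 40 members listed for a known role, 37 were in the table. With the block 2 were lower (Zfp932 and Zfp57), 1 was higher (Zfp365) and 34 did not pass, with a median of −0.08. The 8.11% of these genes that passed in either direction stand beside 10.6% of all genes. Among DNA-binding activators and repressors, Zfp143, which activates promoters of many housekeeping genes, averaged 7.19 FPKM in cKO and 7.64 FPKM in WT (−0.07, adjusted p = 0.698). Zfp410, which keeps Chd4 expressed, averaged 23.3 FPKM in cKO and 24.8 FPKM in WT (−0.08, adjusted p = 0.527). Zfp281, Zfp148 and Zfp24 differed by 0.02, 0.04 and −0.03. Zfp335, a chromatin factor needed for neural progenitors, had 3.94, 5.15, 3.86 and 4.17 FPKM in cKO against 7.05, 7.26, 4.13 and 6.14 FPKM in WT (−0.46, adjusted p = 0.0659), and it shares its locus with genes on the other strand. The EBF partners Zfp423 and Zfp521 differed by −0.18 and 0.14, and neither passed.

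The members named here for ribosome function or RNA binding did not pass, while Zfp365, named above as a partner of DISC1, did. Zfp598, the ubiquitin ligase that marks collided ribosomes, was at 11.7 to 13.3 FPKM in cKO and 11.9 to 15.5 FPKM in WT (−0.08, adjusted p = 0.607). Zfp622, which takes part in maturation of the large ribosomal subunit, was at 21.1 to 25.4 FPKM in cKO and 17.4 to 23.8 FPKM in WT (0.21, adjusted p = 0.219). The RNA-binding members Zfp326, Zfp106 and Zfp346 differed by −0.10, −0.11 and 0.06. For eye disease, Zfp513 (human ZNF513, retinitis pigmentosa), Zfp408 (human ZNF408, familial exudative vitreoretinopathy) and Zfp644 (human ZNF644, high myopia) differed by −0.16, −0.12 and 0.07, with adjusted p of 0.297, 0.459 and 0.556. None of them passed.

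The KRAB domain was found in 145 of the 272 members. Of the protein-coding Zfp genes of GENCODE, 66.2% of the 219 with KRAB reached the table, against 84.9% of the 146 without. The KRAB members were also at lower levels, with a median of 5.14 FPKM against 13.1 FPKM for the others, on the same per-length scale. With the block 5 KRAB members were lower and 1 higher, and of the 127 others 6 were lower and 4 higher. That is 3.45% lower and 0.69% higher with KRAB, and 4.72% lower and 3.15% higher without, beside 7.59% lower and 2.99% higher over all genes. The median difference was −0.05 with KRAB and −0.02 without, and 98 KRAB members (67.6%) against 70 others (55.1%) were negative. Of the 10 SCAN members 9 were negative, with a median of −0.12, and 2 were lower with the block, Zfp445 and Zfp446. Across the 272 members the difference had a Spearman correlation of 0.04 with the mean level, −0.10 with transcript length and 0.02 with GC content, against 0.20, −0.33 and 0.03 across all genes, where genes share the libraries and are not independent.

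Zfp genes lie in clusters, and 107 members lay in 14 runs of at least 4 measured neighbours, with 70 members in all on chromosome 7 and 35 on chromosome 17. A run of 14 KRAB genes lay on chromosome 17 at chr17:21423227-22456689 (GRCm38), from Zfp54 to Zfp946, where 13 were negative with a median of −0.11 and none passed. Over all members 61.8% were negative. The median of this run was −0.15, −0.25, −0.065 and 0.05 in pairs 1, 3, 4 and 5. Of its genes 3 were lower in all 4 pairs (21.4%, beside 19.5% of all genes). A run on chromosome 8 of Zfp709, Zfp882, Zfp617 and Zfp961 held 4 positive differences, from 0.01 to 0.21, and again none passed. Its median was 0.01, 0.05 and 0.06 in pairs 1, 3 and 4 but 0.52 in pair 5, and 1 of its genes was higher in all 4 pairs. Of the 14 runs, 9 held no member past the threshold with the block and 5 held 1 each. The genes that passed were thus scattered, and neighbours such as Zfp560 (0.47) and the other 4 members of its run on chromosome 9, the lowest at −0.18, did not move alike. Cluster neighbours are often near copies, and reads shared between them cannot be told apart.

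**Figure D4:**
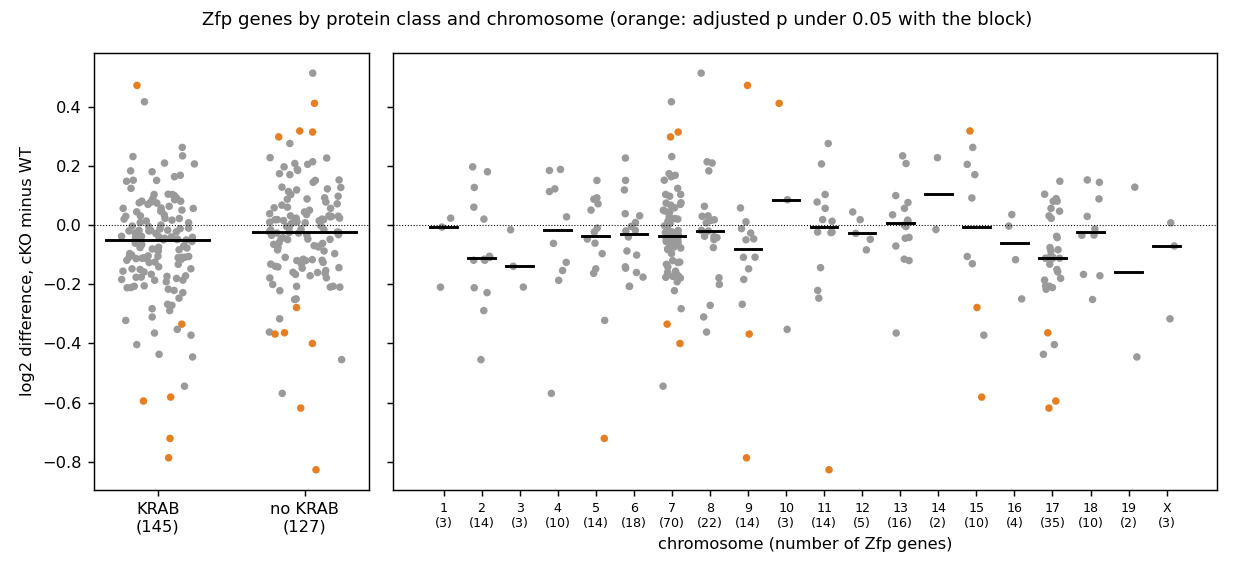
Log2 difference, cKO minus WT, of the 272 Zfp genes by KRAB domain (left) and by chromosome (right), with the number of genes in brackets and a black bar at the median. Orange points passed an adjusted p of 0.05 with the replicate block, and the medians are −0.05 with KRAB and −0.02 without.

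The partners of KRAB proteins were read from a list of 35 corepressor and heterochromatin genes, of which 33 were measured. With the block 3 were lower (9.09%, beside 7.59% of all genes) and none higher, and the median was −0.07. Fam208a, a HUSH complex subunit, had 18.5, 20.3, 15.2 and 13.5 FPKM in cKO against 25.2, 28.3, 21.98 and 16.2 FPKM in WT (−0.42, adjusted p = 0.0139). Morc2a and Morc3, ATPases of heterochromatin silencing, differed by −0.32 and −0.36 (adjusted p = 0.0354 and 0.0262). Each of the 3 was lower in all 4 pairs. Morc2a and Morc3 missed the threshold whichever pair was left out (adjusted p = 0.0609 to 0.134), and Fam208a missed it without pair 1, 3 or 4 (adjusted p = 0.0565 to 0.0631). Trim28, the corepressor that KRAB domains bind, averaged 104.6 ± 16.1 FPKM in cKO and 114.6 ± 4.44 FPKM in WT (SD, n = 4 each; adjusted p = 0.357). Setdb1 averaged 12.6 ± 0.65 FPKM in cKO and 14.2 ± 1.34 FPKM in WT (adjusted p = 0.181).

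Other zinc finger families were set beside the Zfp genes. With the block, 2 of 36 Zbtb genes, 4 of 20 Zscan and Zkscan genes, 1 of 32 Zfp genes with letters in the name, 1 of 16 Zc3h genes, 1 of 4 Zfhx genes and 0 of 10 Klf genes were lower, beside 7.59% of all genes. Of the same families 1 gene was higher, a Zfp gene with letters in its name. Their medians ran from −0.09 for Zfhx to 0.03 for Klf, a range that holds the Zfp median of −0.04, and no difference between families was tested.

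The mean of unspliced RNA and the listed nuclear RNAs were lower in the cKO library of every pair. The 11 Zfp genes that passed as lower in cKO went the same way in every pair, and the 5 that passed as higher went the other way. The 81 measured genes annotated as TEC (to be experimentally verified) or sense intronic, classes that often hold intronic RNA, had a mean log2 level of 2.22, 2.47, 1.86 and 1.64 in cKO libraries 1, 3, 4 and 5, against 2.59, 2.76, 2.27 and 2.01 in WT. Each cKO library was below its partner by a like amount. With the block 26 of the 81 genes were lower (32.1%, beside 7.59% of all genes). Malat1, a nuclear RNA, had 732.9, 1029, 420.8 and 155 FPKM in cKO against 1000, 1559, 727.5 and 297.6 FPKM in WT. When the mean of the 81 genes was added to the fit with the block, no gene of the table passed and 2 residual degrees of freedom were left. In that fit the differences of Zfp445, Zfp318 and Zfp446 became 0.08, 0.24 and 0.08, and those of Zfp365 and Zfp706 became −0.35 and −0.30. The other Zfp genes that passed with the block kept their sign there. They ran from −0.97 for Zfp932 to 0.55 for Zfp560, with Zfp692 at −0.64 and Zfp428 at 0.04. Since the covariate was lower in the cKO library of every pair, genotype and unspliced RNA cannot be told apart here.

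**Figure D5:**
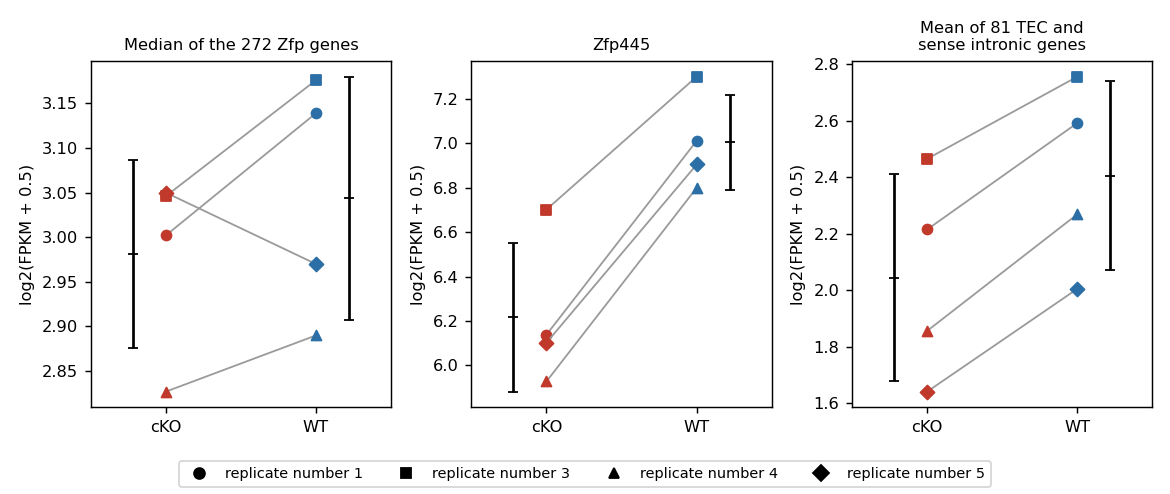
Level by library, as log2(FPKM + 0.5), of the median of the 272 Zfp genes (left), of Zfp445 (middle) and of the mean of 81 TEC and sense intronic genes (right), with cKO left of WT, grey lines joining libraries of the same number, and bars for the mean and SD of 4 libraries. Zfp445 and the unspliced RNA mean are lower in cKO in each of the 4 pairs, and the Zfp median is lower in 3 of them.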

How the data were processed

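RNA pulled down with Müller cell ribosomes was sequenced in 8 libraries, 4 cKO and 4 WT. Per the labels, poly(A) RNA was made into directional libraries with NEBNext kits. The authors deposited 1 table of FPKM, a name given by the table itself; every gene in it has a mean above 2 FPKM. STAR and edgeR, with the builds GRCm38 and mm10, are named in the submitters' processing notes, with no version; the counting tool, its strand setting and the filter are not given in the sources used here. The number of fragments is not given, so no counting interval or floor was computed, and precision rests on the 4 libraries per group.

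Values were taken as log2(FPKM + 0.5), which understates changes of low genes, and fitted for all 12339 genes with limma 3.58.1 in R 4.3.3 (eBayes with a trend, two-sided, Benjamini-Hochberg adjustment, threshold 0.05), with 6 residual degrees of freedom. Replicate numbers come from the sample titles. After removing group means, cKO and WT libraries correlated across all genes at 0.261 to 0.591 where the numbers matched and −0.479 to 0.211 where they did not. All 8 libraries correlated best with their own number, so a second fit had the number as a block (3 residual degrees of freedom). Across the 272 members the ranges overlapped, at 0.172 to 0.49 where the numbers matched and −0.362 to 0.218 where they did not. There 7 of the 8 libraries correlated best with their own number. Adjusted p-values in the report are from the block fit unless said otherwise.

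Members and lists were chosen with earlier results of these data known. Named genes were the 10 members with the smallest p in each direction of each fit, the 10 most and 3 least abundant, listed role genes, corepressors and clusters, plus Nfe2l2 and Rpl22; genes named in addition, such as the overlapping ones, were chosen after their values were seen. Coordinates, biotypes and protein sequences for motif counts came from GENCODE M21. KRAB and SCAN were called at 50% match to a consensus. Alternatives covered the pseudocount, a level filter, scaling, length and GC content, an unspliced RNA covariate, libraries with Xist RNA, weights, and leaving out each library or pair.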

Additional observations from a re-analysis of the deposited data

Results flagged for a closer look

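Among the named genes, 150 groups of 4 libraries were screened for 1 library that stood apart, by the gap to its nearest neighbour as a share of the group's range, and 12 were picked out. Chance picks about 1 in 20 groups. In cKO, library 3 stood apart for Zfp58 (0.942) and Zfp428 (0.856), library 4 for Zfp568 (0.925) and Zfp598 (0.868), and library 1 for Zfp622 (0.863). In WT, library 5 stood apart for Zfp157 (0.923), Zfp644 (0.874) and Zfp622 (0.837), library 3 for Zfp326 (0.874) and Zfp560 (0.842), library 4 for Zfp106 (0.847) and library 1 for Zfp108 (0.845). Zfp428 and Zfp560 are the genes among these that passed with the block, and in both the low library was number 3 of the group.

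For Zfp428 the low library was cKO 3, at 30.1 FPKM beside 39.6 to 41.2 FPKM in the other cKO libraries. For Zfp560 it was WT 3, at 3.64 FPKM beside 5.96 to 6.40 FPKM in the other WT libraries. Without pair 3 the difference of Zfp428 was 0.33, against 0.31 with all pairs, and its adjusted p with the block was 0.0657. Its adjusted p without pair 1, 4 or 5 was 0.0583, 0.0927 or 0.0606. Without pair 3 the difference of Zfp560 was 0.42, against 0.47 with all pairs, and its adjusted p was 0.116. Its adjusted p without pair 1, 4 or 5 was 0.126, 0.138 or 0.0308.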

How the results depend on the processing

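The fit without the block called 0 members under each of its alternatives apart from the block itself, and with the block 11 were lower and 5 higher. At an unadjusted p under 0.05, the 17 lower and 6 higher members became 33 and 14 with the replicate block, 11 and 11 with quantile scaling, 8 and 1 with the unspliced RNA covariate, 1 and 1 with the libraries that hold Xist RNA alone, and 37 and 14 with library weights. Leaving out each library gave 7 to 25 lower and 1 to 8 higher. In the fit with the replicate block, counts past the threshold were 0 and 0 without the block or with the unspliced RNA covariate, 5 lower and 0 higher with the Xist libraries alone, and 3, 2 and 3 higher with the length and GC correction, no trend and TPM scaling. Leaving out each pair gave 4 to 6 lower and 0 to 2 higher. The settings that combine the block with the covariate, with the Xist libraries, with no trend, with TPM or with a pseudocount of 0.1, and the exchange within pairs for Nfe2l2, were chosen after seeing the data.

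Signs turned as follows. With TPM, Zfp281 was −0.0087 and Zfp444 −0.012. With quantile scaling, Zfp568 was 0.051, Zfp592 0.060 and Zfp444 −0.0065. With the length and GC correction, Zfp462 was 0.040, Zfp638 0.0018, Zfp568 0.025, Zfp592 0.11, Zfp292 0.062, Zfp106 0.040 and Zfp24 0.021. With the unspliced RNA covariate, Zfp326 was 0.012, Rpl22 −0.025, Zfp638 0.0091, Zfp568 0.16, Zfp207 0.12, Zfp598 0.015, Zfp369 0.094, Zfp143 0.039, Zfp281 −0.021 and Zfp809 0.049. With the Xist libraries alone, Zfp568 was 0.040, Zfp592 0.073 and Zfp369 0.032. With weights, Zfp219 was 0.0070, Zfp148 −0.11 and Zfp444 −0.0046. With the block and the covariate, Zfp445 was 0.085, Zfp318 0.24, Zfp446 0.078, Zfp365 −0.35 and Zfp706 −0.30. Leaving out each library gave −0.088 to 0.13 for Zfp592, −0.14 to 0.043 for Zfp207, −0.13 to 0.041 for Zfp24, −0.046 to 0.11 for Zfp148, −0.17 to 0.088 for Zfp568, −0.060 to 0.091 for Zfp281, −0.056 to 0.079 for Zfp444, −0.23 to 0.059 for Zfp108, −0.15 to 0.015 for Zfp326, −0.15 to 0.0061 for Zfp369, −0.15 to 0.044 for Zfp143 and −0.049 to 0.0074 for Zfp219. The cause was not tested. The median of the members ran from −0.079 to −0.0086 when each library was left out.

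Genes under a mean of 2 FPKM and fragments per library were not analysed here.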
